A study of Auxenochlorella pyrenoidosa with 12 samples.

Results

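Transcript levels in cultures of the unicellular green alga Auxenochlorella pyrenoidosa with no added nitrate (N0, 0 g/L NaNO3) were compared with those in cultures with mildly reduced nitrate (N1, 1 g/L NaNO3). The comparison used 6 of the 12 libraries of the series, 3 per group, and all 16413 deposited features, of which 15429 passed the filter on low counts and were tested. The remaining groups, N0.5 (0.5 g/L) and N1.5 (1.5 g/L, the control of the study), helped to estimate the spread, and are otherwise used to set levels and changes beside those of N0 and N1. All libraries came from strain SHOU-1002, and those of a group are described by the submitters as biological repeats. NaNO3 is the only difference between groups that the labels give. Harvest time, growth conditions and batches are not stated by the sources used here. All values are relative to a library's total, so a change in the total RNA of a cell would not be seen.

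Green algae take up nitrate through membrane transporters and reduce it to ammonium with nitrate reductase and nitrite reductase, and the ammonium is built into glutamine and glutamate. When nitrogen runs out, such algae are known to slow growth, take down parts of the photosynthetic apparatus, recycle nitrogen from proteins and store carbon as starch and triacylglycerol. The series was set up around lipid accumulation under such conditions. The deposited features carry assembly names, and the files do not pair them with genes or sequences. The results below are therefore about named and counted features, and none of them is assigned to nitrate uptake, photosynthesis or lipid synthesis.

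Library totals were 22873497 to 24383226 estimated counts in N0 and 22687922 to 24170650 in N1. N0 and N1 were set apart far more widely than libraries of one group. Between an N0 and an N1 library, a median of 19.1% of the counts lay on other features (range 17.4 to 19.6% over 9 pairs), against 3.18 to 4.75% between N0 libraries and 2.46 to 5.35% between N1 libraries. Replicate 2 stood somewhat apart in both groups: its median distance from the other 2 libraries of its group, over the 9802 features with a mean of at least 10 CPM (counts scaled to a common library total), was 0.11 on the log2 scale in N0 and 0.11 in N1, against 0.086 to 0.087 and 0.060 to 0.097 for the other replicates of N0 and N1. Leaving out N0 replicate 2 or N1 replicate 2 left 8218 and 8205 features called.

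Most tested features differed between N0 and N1, and most differences were small. In N0, 3943 features rose (25.6% of those tested) and 4588 fell (29.7%), together 8531 or 55.3%. These calls had a Benjamini-Hochberg adjusted p under 0.05 in edgeR's quasi-likelihood test. The median fold change was 1.60 among the features that rose and 1.62 among those that fell, and 5566 of the called features (36.1% of those tested) changed by less than 2-fold. At 2-fold or more, 1454 rose (9.42%) and 1511 fell (9.79%). That order turned with RLE size factors (1522 up, 1441 down) and with DESeq2 (1542 up, 1458 down). At 4-fold or more, 700 rose (4.54%) and 427 fell (2.77%), and at 8-fold or more 427 rose (2.77%) and 124 fell (0.804%). Falls outnumbered rises among all calls, and scaling moved their balance. Rises made up 46.2% of calls with TMM scaling, 49.8% with RLE and 32.1% with library totals (2814 up, 5943 down). Library totals shifted the median log2 fold change over the tested features to -0.17, from -0.01 with TMM.

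**Figure D1:**
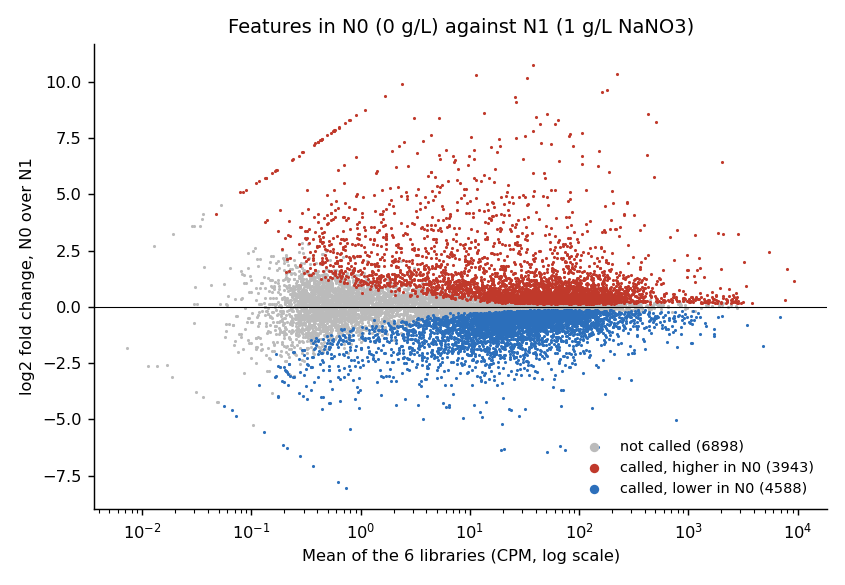
Each point is one tested feature, placed by the mean CPM of its 3 N0 and 3 N1 libraries (x axis, log scale) and by its fitted log2 fold change, N0 over N1 (y axis), with red for the 3943 called higher in N0, blue for the 4588 called lower and grey for the 6898 not called. Changes of 4-fold or more are more often rises (700) than falls (427).

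The groups were well separated for single features as well. All 3 N0 libraries lay on the same side of all 3 N1 libraries for 9336 features (60.5% of those tested), above them for 4396 and below them for 4940. Of the features called higher, 95.9% had no overlap between the groups, and of those called lower, 96.9%. The calls were made on the same libraries, so the shares among called features follow largely from the selection.

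The transcriptome of N0 was drawn together on fewer features. Of all counts, 50% lay on the first 572, 688 and 602 features in N0 replicates 1, 2 and 3, against the first 792, 861 and 812 in the N1 libraries. The 10 features with the most counts took 7.09, 6.51 and 7.20% of the counts in N0 and 5.24, 4.91 and 5.12% in N1. The groups did not overlap in either measure, and a two-sided exact permutation test gave p = 0.1 for both, the smallest that 3 against 3 libraries allow. The number of features at 1 CPM or more did not separate the groups, with 12685, 12977 and 12681 in N0 and 12557, 12770 and 12622 in N1 (exact permutation p = 0.4).

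With library totals, gains were more concentrated than losses. Over all features, counts worth 18.5% of a library were gained on 6454 features and lost on 9942. Gain and loss are equal here by construction, and the split of features depends on scaling. The median log2 fold change of the tested features was -0.17 with library totals and -0.01 with TMM. The concentration was not computed with TMM. The first 10 features by size held 23.4% of the gain but 10.7% of the loss, and 50% of the gain lay on 103 features, against 440 for 50% of the loss. The 1454 features that rose 2-fold or more held 17.1% ± 0.63 of each N0 library and 5.06% ± 0.13 of each N1 library (SD, n = 3), and the 1511 that fell 2-fold or more held 2.79% ± 0.11 in N0 and 9.07% ± 0.17 in N1. These 4 shares come from the libraries that selected the features, so their direction follows from the selection.

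Rises dominated among the features with the most counts. In the tier of 1000 CPM and above, 71.9% rose (97 of 135) and 17.0% fell (23). Between 100 and 1000 CPM, 820 of 1822 rose (45.0%) and 494 fell (27.1%). Between 10 and 100 CPM the order was the other way, with 2079 of 7845 rising (26.5%) and 3165 falling (40.3%). With library totals the middle of these tiers turned, to 605 rises and 717 falls between 100 and 1000 CPM, while the tier above (52 up, 28 down) and the tier below (1371 up, 4128 down) kept their order. Below 1 CPM few features could be called, 260 higher and 169 lower of 2604. Of the 100 features with the most counts in N1, 66 rose and 22 fell, and among them 4 rises and 7 falls reached 2-fold. With library totals 29 rose and 25 fell. In N0, 81 of those 100 were again among the 100 with the most counts.

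The feature with the largest gain in counts was TRINITY_DN7326_c0_g1_i7_3, an assembled transcript of about 2346 bases. It stood at 13395, 11557 and 13544 CPM in N0 replicates 1, 2 and 3, against 4133, 3743 and 4111 CPM in the N1 libraries. Every N0 library was well above every N1 library, and replicate 2 was the lowest of both groups. The rise was 1.68 ± 0.13 on the log2 scale (± standard error, edgeR adjusted p 8.86e-08). Per length, it was the feature with rank 5 by mean FPKM in N0 and rank 52 in N1. In the groups outside the comparison it stood at 2668 ± 229 CPM in N0.5 and 1453 ± 325 CPM in N1.5 (SD, n = 3), so the level in N1 was above both.

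That order of levels recurred among some of the features with the largest gains. The 10 with the largest difference in CPM had gains between 2182 and 8836 CPM. Of these, 8 had all 3 N1 libraries above all 3 N1.5 libraries and 7 had them above all 3 N0.5 libraries. Ranks 3, 5, 6 and 10 did not meet both conditions. All 10, which were chosen as higher in N0 than in N1, had every N0 library above every N0.5 and N1.5 library. The shares of all tested features with these orders were not computed, so the counts describe these 10 only. The second by size stood at 10341, 8643 and 10265 CPM in N0, against 1887, 1649 and 1800 CPM in N1. It stood at 1233 to 1517 CPM in N0.5 and 401 to 740 CPM in N1.5, so N1 was again above both. This and the other features given by rank below were picked after their values were seen. The third stood at 13590, 11726 and 14822 CPM in N0 and at 6139, 5734 and 6032 CPM in N1, and did not follow this order, with 5820 to 6480 CPM in N1.5. The fifth, of about 2489 bases, moved most by fold, with 4666, 3841 and 4533 CPM in N0 against 69.1, 32.1 and 49.4 CPM in N1 and a log2 fold change of 6.44 ± 0.52 (edgeR adjusted p 1.2e-07). Together these 10 features took 6.31, 5.83 and 6.41% of the counts in N0 and 1.89, 1.80 and 1.88% in N1.

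The largest fold was that of TRINITY_DN9435_c0_g1_i1_3, an assembled transcript of about 708 bases. It had 1839, 1698 and 1823 counts in N0 replicates 1, 2 and 3, against 3, 0 and 0 in the N1 libraries, or 80.6 ± 3.53 CPM in N0 and 0.043 ± 0.074 CPM in N1 (SD, n = 3). Pooled over libraries, 5360 counts in N0 and 3 in N1 gave a ratio of 1746 with an exact 95% interval of 597 to 8471, which covers counting error only. The fitted log2 fold change was 10.75 (standard error 0.51, edgeR adjusted p 6.77e-10). Since all 3 counts in N1 were in replicate 1, the fitted value was 13.87 without that library. Outside the comparison it had 0.545, 0.627 and 0 CPM in the N0.5 libraries and 0.913, 3.00 and 1.29 CPM in the N1.5 libraries, all far below N0.

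**Figure D2:**
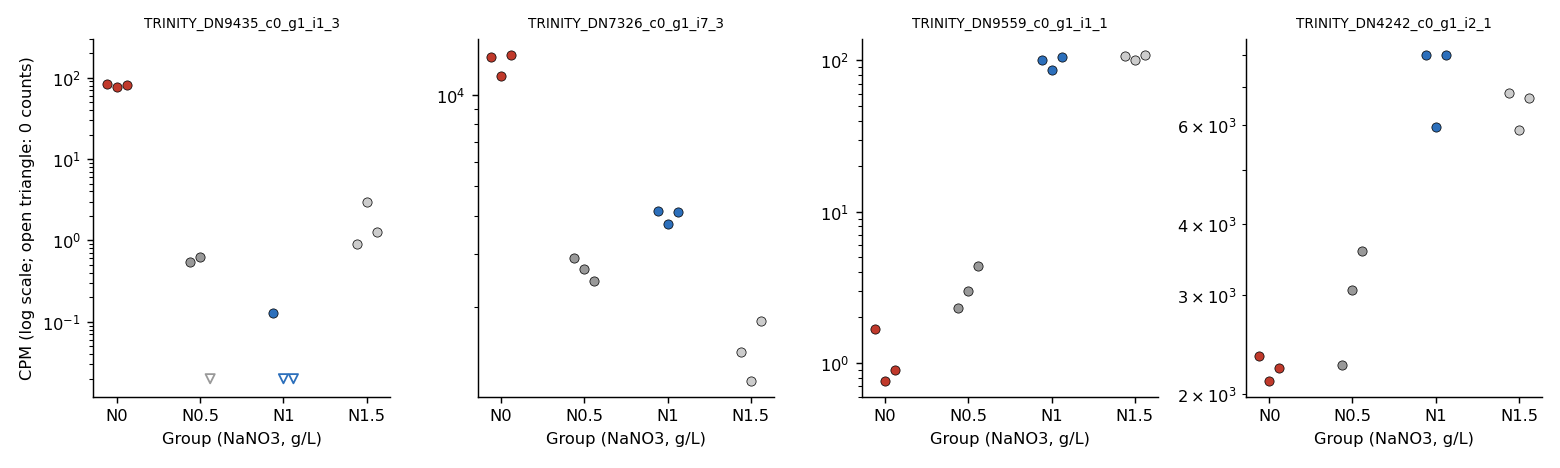
CPM after TMM scaling (log scale) of the 4 features named by rule in each library, with groups in order of NaNO3 from 0 to 1.5 g/L, one point per library and open triangles for libraries with 0 counts. N0 is highest in the left pair of panels, while in the right pair its mean is lowest, with 1.11 and 2221 CPM on average against 97.6 and 7307 CPM in N1.

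Transcripts almost absent from one of the groups were more often those of N0. Rises of 32-fold or more were found for 150 features (0.972% of those tested) and falls of that size for 17 (0.110%). Of the 150, 42 had 0 counts in all 3 N1 libraries, and of the 17, 7 had 0 counts in all 3 N0 libraries. A fitted fold of such a feature is not a measurement of size. With each set to its bound, computed against 3 counts per library, 109 features were at least 32-fold higher and 10 at least 32-fold lower, and the median log2 fold change of the 150 was 5.75 instead of 6.63. Among features with 10 counts or more in every library of one group, 29 were present in N0 with 0 counts in all N1 libraries, and 1 was present in N1 with 0 counts in all N0 libraries. With 3 or fewer counts allowed in each library of the other group, 85 were present in N0 and 10 in N1. The 29 were scarce, at a median of 1.06 CPM in N0. An observed 0 leaves room for 3 counts, or 0.123 to 0.131 CPM in the N0 libraries and 0.124 to 0.132 CPM in the N1 libraries.

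The level of such transcripts in N1 differed between its libraries, and their level in N0.5 did so too. The 10 features with the largest rise by fold summed to 1686, 1520 and 1709 CPM in N0 and to 5.45, 0.194 and 0.300 CPM in N1 replicates 1, 2 and 3. N1 replicate 1 was thus far above the other N1 libraries, and had counts above 0 for all 10, whereas 5 and 6 of the 10 were at 0 counts in replicates 2 and 3. The sums were 14.0, 15.1 and 0.801 CPM in N0.5 replicates 1, 2 and 3, with 6 of the 10 at 0 counts in replicate 3. In N1.5 they were 10.4, 17.1 and 17.1 CPM. These 10 were chosen by their fold over N1. For the 81 features that rose 32-fold or more and averaged 10 CPM or more in N0, the median level was 1.36, 0.696 and 0.982% of the N0 level in N1 replicates 1, 2 and 3. The part of this unequal remainder in the size of the largest folds was not tested. The count of 32-fold rises was 160 to 209 with any 1 of the 6 compared libraries left out, against 150 with all. The count of 32-fold falls was 18 to 48, against 17. It was 44, 46 and 48 without N0 replicate 1, 2 or 3, and 26 without N1 replicate 1. Leaving out 1 library of N0.5 or N1.5 also raised these counts, to 169 to 173 rises and 21 to 23 falls. The filter on low counts was applied anew each time, and its part in these counts was not tested.

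Among the falls, TRINITY_DN4242_c0_g1_i2_1, of about 4601 bases, lost the most counts. It stood at 2336, 2110 and 2217 CPM in N0, against 7982, 5947 and 7993 CPM in N1. The groups did not overlap, and N1 replicate 2 was clearly the lowest of its group. The log2 fold change was -1.72 ± 0.15 (edgeR adjusted p 2.78e-07). By mean FPKM it held rank 180 in N0 and rank 62 in N1.

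TRINITY_DN9559_c0_g1_i1_1, of about 1513 bases, fell most by fold. It stood at 1.67, 0.767 and 0.902 CPM in N0, against 101, 86.8 and 105 CPM in N1. The log2 fold change was -6.45 ± 0.20 (edgeR adjusted p 2.53e-11), with 75 counts pooled over N0 and 7057 over N1. In N0.5 it was also low, at 3.24 ± 1.07 CPM, while N1.5 with 105 ± 4.29 CPM was close to N1 (SD, n = 3). N0 was still lower than N0.5, with a log2 fold change of -1.54 (edgeR adjusted p 0.000273).

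The large losses did not all take the same course over the NaNO3 levels. Of the 10 largest in CPM, 6 had all 3 N0.5 libraries below all 3 N1.5 libraries and 2 had them above. Those 2 were the fifth and the tenth. The fifth largest loss in CPM had 44.2, 41.1 and 47.3 CPM in N0, against 1407, 1393 and 1500 CPM in N1, a log2 fold change of -5.02 ± 0.077 (edgeR adjusted p 9.2e-14). In N0.5 it was at 2722, 2627 and 2487 CPM, above N1 and N1.5. The tenth largest loss was alike, with 821, 678 and 790 CPM in N0 and 1853, 1640 and 1832 CPM in N1, but 3215 to 3287 CPM in N0.5. In 8 of the 10 largest losses every N0 library was below every N0.5 library, and in all 10 below every N1.5 library. These 10 were chosen as lower in N0 than in N1. N1.5 lay close to N1, with 5.15 to 7.55% of the counts on other features between their libraries. The order of N0 and N1.5 was thus partly set by the selection. The shares of all tested features with these orders were not computed.

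The levels of the called features in N0.5 and N1.5 were no part of the contrast that called them, although these libraries entered the scaling, the filter and the estimate of the spread. With only the 6 compared libraries in the fit, 8108 features were called, and 92.9% of the rises and 93.4% of the falls were kept. The 550 features that rose 4- to 32-fold had a median of 11.2, 11.8 and 10.8 CPM in N0 and 1.32, 1.16 and 1.29 CPM in N1. Their median was 1.74 to 1.84 CPM in N0.5 and 0.857 to 1.11 CPM in N1.5. The class median was thus low in all groups with added nitrate. The set was chosen as high in N0 and low in N1, and features scarce elsewhere could pass the filter through N0 alone. Single features differed: of the 700 that rose 4-fold or more, 36.9% were called higher in N0.5 than in N1.5 and 15.4% lower. The 410 features that fell 4- to 32-fold had a median of 1.72, 1.87 and 1.67 CPM in N0 and 11.8, 12.4 and 11.3 CPM in N1. Their median in N0.5, at 12.9 to 13.7 CPM, was not below that in N1.5, at 11.6 to 12.2 CPM. This set was chosen as low in N0 and high in N1, and features scarce in N0 could pass the filter through other groups. The smaller falls were placed otherwise: the 3077 features that fell by less than 2-fold had a median of 29.8 to 30.7 CPM in N0 and 41.5 to 42.6 CPM in N1, and in N0.5 stood nearer to N0, at 33.6 to 33.9 CPM.

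**Figure D3:**
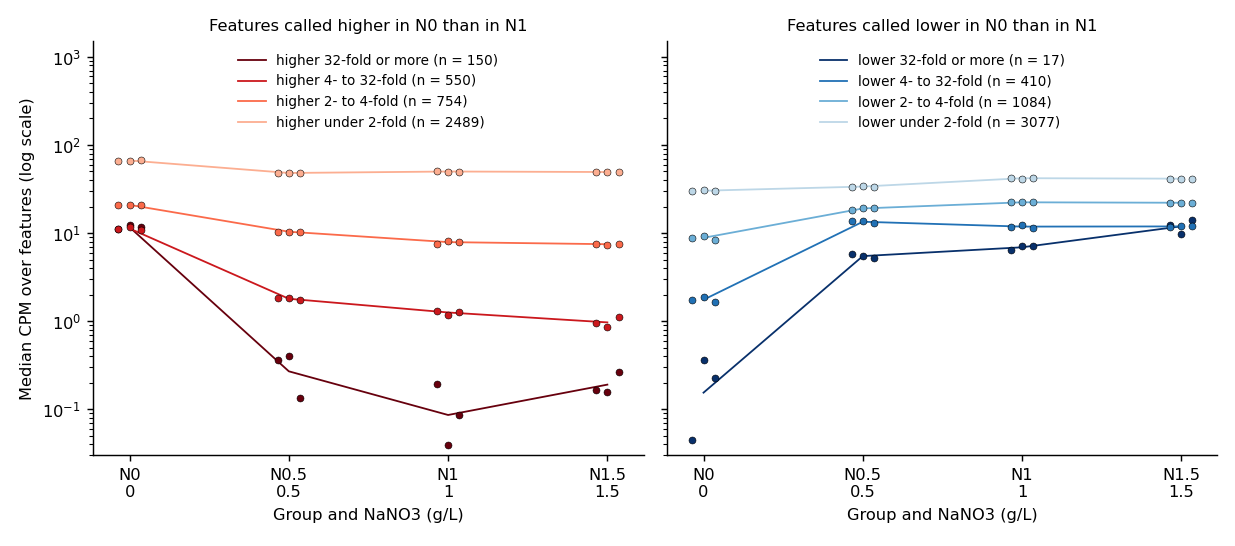
Median CPM over features (log scale) in each of the 12 libraries for features called higher (left panel) and lower (right panel) in N0 than in N1, split by size of change, with one point per library and lines through the geometric means of 3 libraries. N0 and N1 differ by selection, while N0.5 and N1.5 were not in the contrast that selected. Features that fell 4- to 32-fold stand at 12.9 to 13.7 CPM in N0.5, against 11.6 to 12.2 CPM in N1.5. Their low level in N0, at 1.67 to 1.87 CPM, follows from the selection.

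One other comparison in the series spans the same step of 1 g/L NaNO3 and shares no library with this one, that of N0.5 with N1.5. It called 4715 features higher in N0.5 (30.6% of those tested) and 4834 lower (31.3%), together 61.9%. Called changes in N0 went the same way there more often than the opposite way. Of the 4588 features that fell in N0 against N1, 46.7% also fell in N0.5 against N1.5 and 28.9% rose. Of the 3943 that rose, 37.2% also rose and 28.4% fell. The 2143 falls in both were 44.3% of the falls in N0.5, and the 1466 rises in both were 31.1% of the rises in N0.5. With library totals 972 rises and 3018 falls were shared.

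Falls of 2-fold or more did not follow this order, while rises of that size did. Of the 1511 features that fell 2-fold or more in N0, 37.9% rose in N0.5 against N1.5 and 33.0% fell. Of the 1454 that rose 2-fold or more, 39.5% also rose and 19.0% fell. Among the 17 falls of 32-fold or more, 7 also fell in N0.5 against N1.5 (41.2%) and 4 rose (23.5%), too few to settle an order. Of the 427 features that fell 4-fold or more in N0, 41.0% rose in N0.5 against N1.5 and 22.5% fell, against 30.6 and 31.3% of all tested features. With library totals these were 40.2% and 22.7% of 537 features, against 26.1 and 35.5% of all. Of the 700 that rose 4-fold or more, 36.9% also rose and 15.4% fell. Across the 15429 tested features, which are not independent replicates, the log2 fold changes of both comparisons had a Pearson correlation of 0.104 and a Spearman correlation of 0.122. Over the 9802 features with a mean of 10 CPM or more, these were 0.149 and 0.169.

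The difference between the changes was also tested directly, as 1 contrast in the same edgeR fit. It passed for 8826 features (57.2% of those tested), for 4553 of which the change from N1 to N0 was the more positive one and for 4273 the more negative. It passed for 658 of the 1466 features that rose in both comparisons and for 1184 of the 2143 that fell in both. The feature that rose most in both, by the smaller of its changes, had 33.7, 30.8 and 33.3 CPM in N0 against 1.49, 1.05 and 1.29 CPM in N1, and 12.9, 13.5 and 15.5 CPM in N0.5 against 0.498, 0.740 and 1.20 CPM in N1.5. Its log2 fold changes were 4.68 and 4.11, and their difference of 0.56 (standard error 0.30) did not pass the test (edgeR adjusted p 0.127). The feature that fell most in both was TRINITY_DN9559_c0_g1_i1_1.

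**Figure D4:**
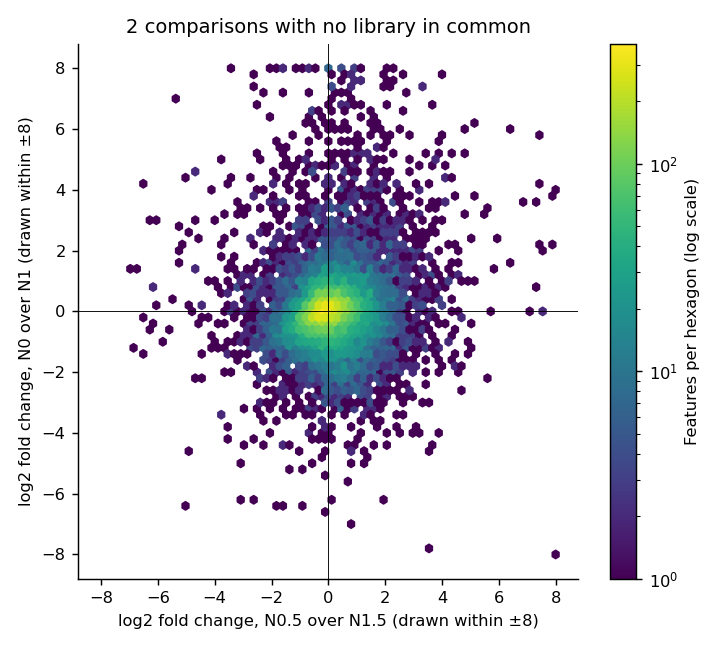
Log2 fold change of N0 over N1 (y axis) against that of N0.5 over N1.5 (x axis) for the 15429 tested features, which come from 6 libraries each with none in common, shown as hexagons shaded by the number of features (log scale), with values past 8 drawn at 8. The cloud is only slightly tilted (Pearson correlation 0.104), and the large rises in N0 spread over both sides of 0 on the x axis. Of the 700 rises of 4-fold or more in N0, 36.9% were called higher in N0.5 than in N1.5 and 15.4% lower.

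Calls differed with the last number of the feature name, which is 1, 2, 3 or 4 and whose meaning is not given in the sources used here. Among the 3941 tested features with the number 3, 4.54% rose by 2-fold or more in N0 and 12.9% fell. For the numbers 1, 2 and 4, rises of 2-fold or more were 11.2, 11.1 and 10.9% and falls 8.14, 9.40 and 8.71%. At 4-fold or more, falls outnumbered rises for the number 3, with 162 against 68. Rises outnumbered falls of that size for 1, 2 and 4, with 252, 192 and 188 against 100, 85 and 80. The contrast in rises was wider at 32-fold or more, with 8 among names ending in 3 (0.203% of those tested). Names ending in 1, 2 and 4 had 55, 40 and 47 (1.24, 1.09 and 1.39%). Falls of that size were few, with 8 for the number 3 (0.203%) and 5, 2 and 2 for 1, 2 and 4 (0.113, 0.0544 and 0.0591%). With library totals the number 3 was again lowest in rises, at 3.55% against 9.07 to 9.68%, and highest in falls, at 16% against 10.4 to 12.3%. Between N0.5 and N1.5 it was the number 2 that stood apart, with 5.76% rising and 12.6% falling by 2-fold or more, against 12.7 to 15.6% and 5.88 to 7.43% for the others. Between 10 and 100 CPM, where the median length and count level of the 4 sets were close, 4.11% of features with the number 3 rose 2-fold or more in N0, against 6.62 to 7.58% of the others.

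**Figure D5:**
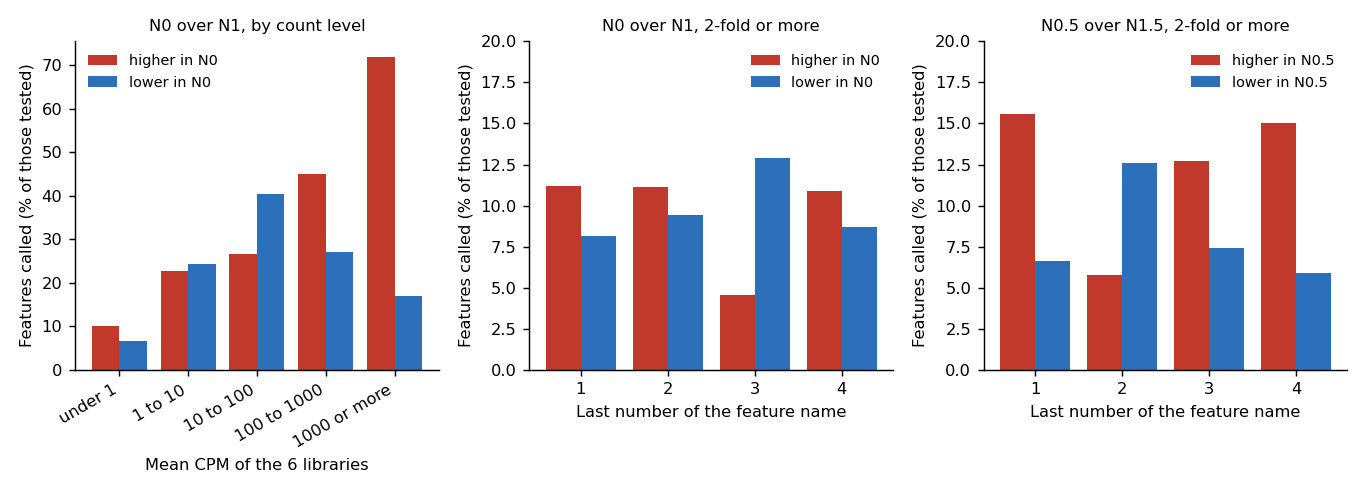
Share of tested features called higher (red, left bar) or lower (blue, right bar), by mean CPM of the 6 libraries for N0 over N1 (left panel), and by the last number of the feature name at 2-fold or more for N0 over N1 (middle panel) and N0.5 over N1.5 (right panel). Rises reach 71.9% at 1000 CPM or more, and are fewest for the number 3 in N0 (4.54%) and for the number 2 in N0.5 (5.76%).

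Short features were called less often, and also had fewer counts. The tested features were put into 4 equal-sized classes of length. In the shortest, 267 to 808 bases, 30.2% were called, against 63.0 to 64.1% in the others. The median count level was 0.698 CPM in the shortest class, against 21.9 to 54.8 CPM in the others. Among features between 10 and 100 CPM, called shares were close, at 64.3 to 68.6% in the 4 classes.

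The absence of a call did not mean the same for all of the 6898 features not called. For 3242 of them (47.0%), the 95% interval of the fold change lay within 1.5-fold in either direction. For 2945 (42.7%) it reached past 2-fold, so that a change of this size was not excluded. At the other end, the whole interval lay beyond a 2-fold rise for 941 features and beyond a 2-fold fall for 939.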

How the data were processed

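Poly(A)-selected RNA of 12 cultures was sequenced, per the labels' protocols. The authors deposited estimated counts and FPKM values (scaled to feature length and library total) of 16413 features. The tools listed in the submitters' processing notes are DESeq, Bowtie2 2.4.5 and Trimmomatic 0.40. How reads were counted and assembled is not given in the sources used here. Feature names have the form of Trinity contigs, so a feature may be a fragment or isoform, and reads of near-identical features may be split. Feature lengths were computed from count, FPKM and library total.

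Estimated counts were rounded and tested with edgeR 4.0.16 in R 4.3.3 (quasi-likelihood F test, TMM, filterByExpr, 1 coefficient per group, all 12 libraries). P-values are two-sided, adjusted by Benjamini-Hochberg over 15429 features, and called under 0.05. Standard errors are the log2 fold change over the square root of F. CPM of single features, and class medians, are after TMM scaling; count tiers, shares and totals are without it. The code was tested on simulated data. Alternatives were RLE and no scaling, other filters, DESeq2 1.42.0, limma 3.58.1 on log2 FPKM, a replicate block and leaving out libraries.

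Named features were, in each direction, those with the largest fold and the largest CPM difference among called features of 5 CPM or more without overlap of the groups. Lists and rules were chosen with earlier results of these data known. Planned sums over assembly loci were not made: 2945 pairs of features sharing a locus name, none with the same last number, had a median correlation of 0.11 over the 12 libraries. Replicate pairs differed by more than counting error (chi-square over its degrees of freedom 4.75 to 16.2).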

Additional observations from a re-analysis of the deposited data

Results flagged for a closer look

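The change from N1 to N0 was set against the change from N1.5 to N0.5, a step of the same size in other libraries, and 6 features were singled out because the changes differed by edgeR's adjusted p for the difference. For TRINITY_DN9435_c0_g1_i1_3 the difference of the log2 fold changes was 12.92 (adjusted p 3.52e-08), for TRINITY_DN7326_c0_g1_i7_3 it was 0.81 (0.00175), for TRINITY_DN9559_c0_g1_i1_1 -1.43 (0.00139) and for TRINITY_DN4242_c0_g1_i2_1 -0.59 (0.0262). These 4 were chosen for their change in N0 against N1, which favours a larger change there.

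The other 2 went in opposite directions, and were chosen for it, so their difference is a description. They come from the 1119 features called higher in N0 and lower in N0.5 and the 1327 called lower in N0 and higher in N0.5. All of these passed the test of the difference, which opposite calls in the same fit make nearly certain. The first had 27.3, 21.8 and 21.4 CPM in N0 against 0.511, 0.039 and 0 CPM in N1, and 0.045, 0.134 and 0 CPM in N0.5 against 3.40, 1.32 and 3.86 CPM in N1.5, with a difference of 12.44. The second had 0.768, 2.93 and 2.98 CPM in N0 against 36.3 to 38 CPM in N1, and 488, 502 and 408 CPM in N0.5 against 46.3, 47.3 and 53.7 CPM in N1.5, with a difference of -7.30.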

How the results depend on the processing

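The counts of calls, of rises, of falls and of changes of 2-fold or more in N0 against N1, and the count of calls in N0.5 against N1.5, each stayed within 1.5 times the reported one under all 24 alternatives. Calls in N0 against N1 went from 6920, with N1 replicates 1 and 3 both removed (an alternative chosen later, with the data seen), to 8774 with limma on log2(FPKM + 1), and were 7874 to 8218 with 1 of the 6 libraries left out. No called feature was called in the opposite direction under any of them. DESeq2 called 4318 up and 4326 down. Counts of large changes moved most. With limma on log2(FPKM + 1), which shrinks low features, rises of 2-, 4- and 32-fold were 951, 363 and 29, against 1454, 700 and 150, and falls of 4- and 32-fold 218 and 5, against 427 and 17. Over all alternatives 32-fold rises were 29 to 266 and 32-fold falls 5 to 48. Features that rose in both comparisons numbered 972 with library totals and 914 and 925 with limma, against 1466. With an adjusted p under 0.01, 3154 rises and 3871 falls were called. With the replicate block 8547 features were called, against 8531 without it; deviations of same-numbered N0 and N1 libraries correlated at 0.336, 0.370 and 0.062, and replicates 3 did not correlate best with each other. Without each library's most abundant feature (added later), the share of the 10 most abundant was higher in N0 by 1.54 percentage points, against 1.84. With FPKM, the number of features holding 50% of the total differed by -128.7 (N0 minus N1), against -201 with counts. At 5 CPM the number of features present differed by -83.3 (N0 minus N1), against 131 at 1 CPM. The cause was not tested. Sums over assembly loci and the count of loci with opposed isoforms were not run. Below 1 CPM, 16.5% of features were called.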
